A study of Mus musculus with 10 samples.

Results

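The contractile genes of the myofibroblast were examined in CUT&Tag libraries of primary mouse cardiac fibroblasts. There were 10 such genes: Acta2, Tagln, Cnn1, Myl9, Tpm1, Tpm2, Cald1, Myh9, Actn1 and Vcl. Their regions were those to which the deposited annotation gave any of these symbols, as the gene with the nearest start site. Under siHK1 against TGF there were 86 such regions of 72990 for JUN, 46 of 58633 for SMAD3, 58 of 68767 for NFATC2 and 11 of 74751 for H3K9lc. In the comparison of TGF with NC there were 7 of 65853 for H3K9lc. Every gene had at least 1 region in a table, and of the tables compared only that of JUN listed regions for all 10.

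In CUT&Tag an antibody guides a transposase to chromatin, and the DNA it cuts is sequenced. The TGF libraries came from fibroblasts given TGF-β. The siHK1 libraries came from fibroblasts transfected with an siRNA against hexokinase 1 (HK1), an enzyme of glycolysis, and then given TGF-β, so the siHK1 and TGF groups share the cytokine. The NC library came from control fibroblasts with no treatment in the labels, and it was read as H3K9lc because its label names that table. The siHK1 library of H3K9lc is titled SI, and its label names the siHK1 table. The labels do not say whether TGF or NC cells received a control siRNA, and the knockdown could not be checked, since no RNA or protein was measured here. Each condition had 1 library per antibody, so replicate error is unknown throughout, no test between conditions was possible, and each comparison is between 2 libraries. In these bulk libraries, fewer cells with a bound site and weaker binding per cell cannot be told apart.

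Myofibroblasts are activated fibroblasts that assemble actin stress fibres and contract the matrix. Acta2 encodes smooth muscle alpha-actin, the usual myofibroblast marker, and Tagln encodes the actin-binding protein transgelin. Genes of this class are textbook targets of serum response factor, which binds the CArG box together with MRTF or myocardin. TGF-β signals through SMAD3, while JUN is a subunit of AP-1 and NFATC2 is a calcium-dependent factor. H3K9lc is lactylation of lysine 9 of histone H3, a mark made from lactate.

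The promoters that the JUN results turn on are shown first. Each is the 250 bases before the RefSeq start site on GRCm38, read in the direction of transcription. Capitals mark the AP-1 motif TGANTCA, the CArG box (CC, then exactly 6 bases that are A or T, then GG) and the TEAD motif CATTCC, each searched on both strands. RefSeq sequences were found for 9 of the 10 genes, the exception being Tagln. The Acta2, Cnn1, Myl9 and Tpm1 windows belong to genes whose start-site JUN ratios were the lowest of those matched, Vcl and Myh9 to genes above 0, and Cald1 has a window for each of 2 start sites.
Acta2, chr19:34255374-34255623, minus strand: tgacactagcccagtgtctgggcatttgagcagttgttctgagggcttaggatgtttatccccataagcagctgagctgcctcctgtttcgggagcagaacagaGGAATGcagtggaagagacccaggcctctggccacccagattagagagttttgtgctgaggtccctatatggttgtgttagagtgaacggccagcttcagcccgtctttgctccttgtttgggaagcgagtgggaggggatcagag
Cnn1, chr9:22099003-22099252, plus strand: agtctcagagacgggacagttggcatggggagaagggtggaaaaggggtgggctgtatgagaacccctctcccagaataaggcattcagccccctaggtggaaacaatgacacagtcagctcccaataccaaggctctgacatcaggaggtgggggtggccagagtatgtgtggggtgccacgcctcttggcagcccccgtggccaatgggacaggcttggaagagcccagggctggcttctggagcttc
Myl9, chr2:156775214-156775463, plus strand: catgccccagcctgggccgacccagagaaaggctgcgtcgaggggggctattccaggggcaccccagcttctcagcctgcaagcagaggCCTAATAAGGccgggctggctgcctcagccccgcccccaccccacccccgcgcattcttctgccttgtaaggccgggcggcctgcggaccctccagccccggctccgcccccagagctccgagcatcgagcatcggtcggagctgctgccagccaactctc
Tpm1, chr9:67049214-67049463, minus strand: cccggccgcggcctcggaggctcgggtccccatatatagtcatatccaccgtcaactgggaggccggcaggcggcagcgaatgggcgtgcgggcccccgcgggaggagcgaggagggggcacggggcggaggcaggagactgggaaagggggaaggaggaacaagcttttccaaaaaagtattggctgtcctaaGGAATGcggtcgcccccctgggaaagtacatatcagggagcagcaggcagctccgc
Vcl, chr14:20929148-20929397, plus strand: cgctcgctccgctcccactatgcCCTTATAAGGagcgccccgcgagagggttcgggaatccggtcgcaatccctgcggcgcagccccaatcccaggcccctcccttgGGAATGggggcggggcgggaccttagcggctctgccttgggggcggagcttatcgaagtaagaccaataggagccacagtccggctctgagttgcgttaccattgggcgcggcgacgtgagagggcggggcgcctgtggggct
Myh9, chr15:77842176-77842425, minus strand: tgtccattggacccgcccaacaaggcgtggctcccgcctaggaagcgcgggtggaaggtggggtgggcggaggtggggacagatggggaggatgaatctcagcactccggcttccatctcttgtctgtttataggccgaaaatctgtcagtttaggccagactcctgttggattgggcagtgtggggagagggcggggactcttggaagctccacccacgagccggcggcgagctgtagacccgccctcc
Cald1 upstream start site, chr6:34598254-34598503, plus strand: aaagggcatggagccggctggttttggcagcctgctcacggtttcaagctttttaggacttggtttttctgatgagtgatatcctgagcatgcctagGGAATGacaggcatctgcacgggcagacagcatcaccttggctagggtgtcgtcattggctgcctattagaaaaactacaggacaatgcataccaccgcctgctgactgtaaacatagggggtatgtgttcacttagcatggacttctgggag
Cald1 downstream start site, chr6:34709194-34709443, plus strand: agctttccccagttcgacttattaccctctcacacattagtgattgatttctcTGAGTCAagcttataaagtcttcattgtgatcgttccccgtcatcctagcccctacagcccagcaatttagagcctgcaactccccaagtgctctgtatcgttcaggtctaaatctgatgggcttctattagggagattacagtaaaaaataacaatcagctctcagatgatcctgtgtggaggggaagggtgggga

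Among 32851 promoter windows of this length, 1.47% held a CArG box, 6.75% an AP-1 motif and 12.6% a TEAD motif. Of the 10 member windows, 2 held a CArG box, in Myl9 and Vcl, and 1 held an AP-1 motif, at the downstream start site of Cald1. A TEAD motif was found in 4, those of Acta2, Tpm1, Vcl and the upstream start site of Cald1. The Myl9 box began 161 bases and the Vcl box 227 bases before the start site. These are matches of letters, not measured sites, and JUN regions covered between 238 and 250 bases of each window printed above. The strict CArG pattern leaves out near matches. The Acta2 window holds ccctatatgg and ccttgtttgg, each 1 base away from the pattern, so lack of capitals does not show lack of a CArG-like site.

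The comparison of siHK1 with TGF addresses whether HK1 depletion alters factor binding at these genes. Read totals over listed regions ranged from 354599 for NFATC2 in siHK1 to 4215447 for JUN in TGF, and the TGF library had the larger total in every pair. Whether that reflects sequencing depth or signal in peaks cannot be told apart, since the depth of whole libraries is unknown. Ratios were scaled to equal totals over the table, so a loss common to all regions would not show. A gene or region was tested where the mean of its 2 scaled counts was at least 10, and it was called lower or higher where it differed by at least 1.5-fold and the exact 95% interval of its ratio excluded 1. These intervals hold counting error alone and treat reads as independent. PCR duplicates of a molecule are not independent of each other, so the intervals may be too narrow. As a check of cell identity, all 7 fibroblast markers had a called JUN region within 3 kb of a start site in TGF, as had 2 of 5 cardiomyocyte, 3 of 4 endothelial, 1 of 3 smooth muscle and 2 of 3 leukocyte markers. JUN occupancy is not expression, and the part of other cell types in the results was not tested.

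**Figure D1:**
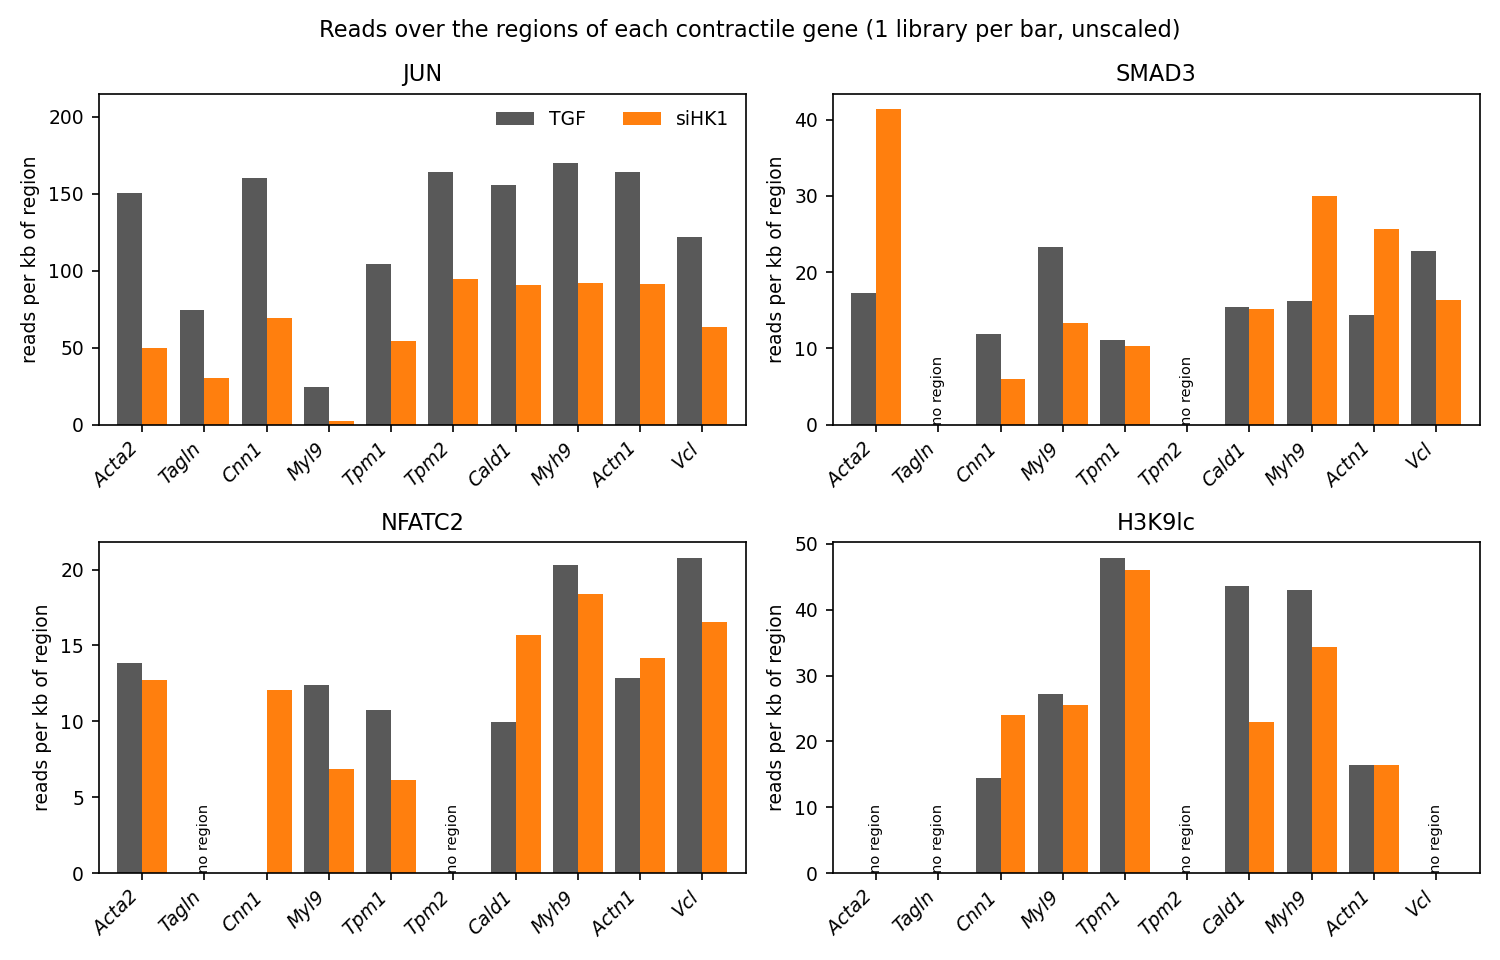
Reads per kb of region (vertical axis) over the listed regions of each contractile gene, in 1 TGF (grey) and 1 siHK1 (orange) library per antibody, before scaling. JUN reads were lower in siHK1 for all 10 genes, from 151 to 49.6 reads per kb at Acta2 and from 24.2 to 2.42 at Myl9, while SMAD3 reads were higher in siHK1 at Acta2, Myh9 and Actn1.

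JUN reads at Acta2 were lower in siHK1 than the table as a whole, whereas the genes with many regions lay at the level of the table. Tagln and Cnn1 had ratios below 0 that did not pass the rule. Acta2 had 237 JUN reads in TGF and 78 in siHK1 over 2 regions. After scaling this was a log2 ratio of -0.71, with an interval of the ratio from 0.467 to 0.792, at the 5.16th percentile of tested genes. Of the 9 members tested, 1 was called lower (Acta2) and 0 higher, against 5.12% lower and 3.68% higher among all 15073 genes tested. The median of the 9 was -0.05 and that of all genes tested -0.01, so the members as a list lay beside the background. The Acta2 call is lost where at least 2-fold is required, and the median over its 2 regions is -0.38.

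Tagln, Cnn1 and Myl9 had fewer reads. Tagln had 59 JUN reads in TGF and 24 in siHK1, a log2 ratio of -0.40 (ratio interval 0.449 to 1.23). Cnn1, which encodes the actin-binding protein calponin, had 118 and 51, a log2 ratio of -0.32 (ratio interval 0.566 to 1.12). Both intervals include 1. Myl9, the regulatory light chain of myosin, had 10 reads and 1 read, too few to be tested.

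The tropomyosins stabilise actin filaments. Tpm1 had 487 JUN reads in TGF and 254 in siHK1 over 10 regions, a log2 ratio of -0.05. For Tpm2, 348 and 200 reads over 2 regions gave a log2 ratio of 0.09. Neither gene passed the rule, and their ratio intervals ran from 0.828 to 1.13 and from 0.892 to 1.27.

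The large cytoskeletal genes carried most of the JUN reads. Cald1 encodes caldesmon, an inhibitor of actomyosin, and had 1617 reads in TGF and 942 in siHK1 over 18 regions (log2 ratio 0.11, ratio interval 0.997 to 1.17). Myh9, the heavy chain of a non-muscle myosin, had 1975 and 1068 reads over 18 regions (log2 ratio 0.01, ratio interval 0.931 to 1.08). Actn1, the actin cross-linker alpha-actinin, had 1865 and 1034 reads over 18 regions (log2 ratio 0.04, ratio interval 0.953 to 1.11). Vcl, encoding vinculin of cell adhesions, had 782 and 404 reads over 13 regions (log2 ratio -0.06, ratio interval 0.848 to 1.08). Each of these 4 intervals lay inside the 1.5-fold limits, though without scaling all 10 members lay below 0, and per kb the 4 genes held between 122 and 170 reads in TGF.

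**Figure D2:**
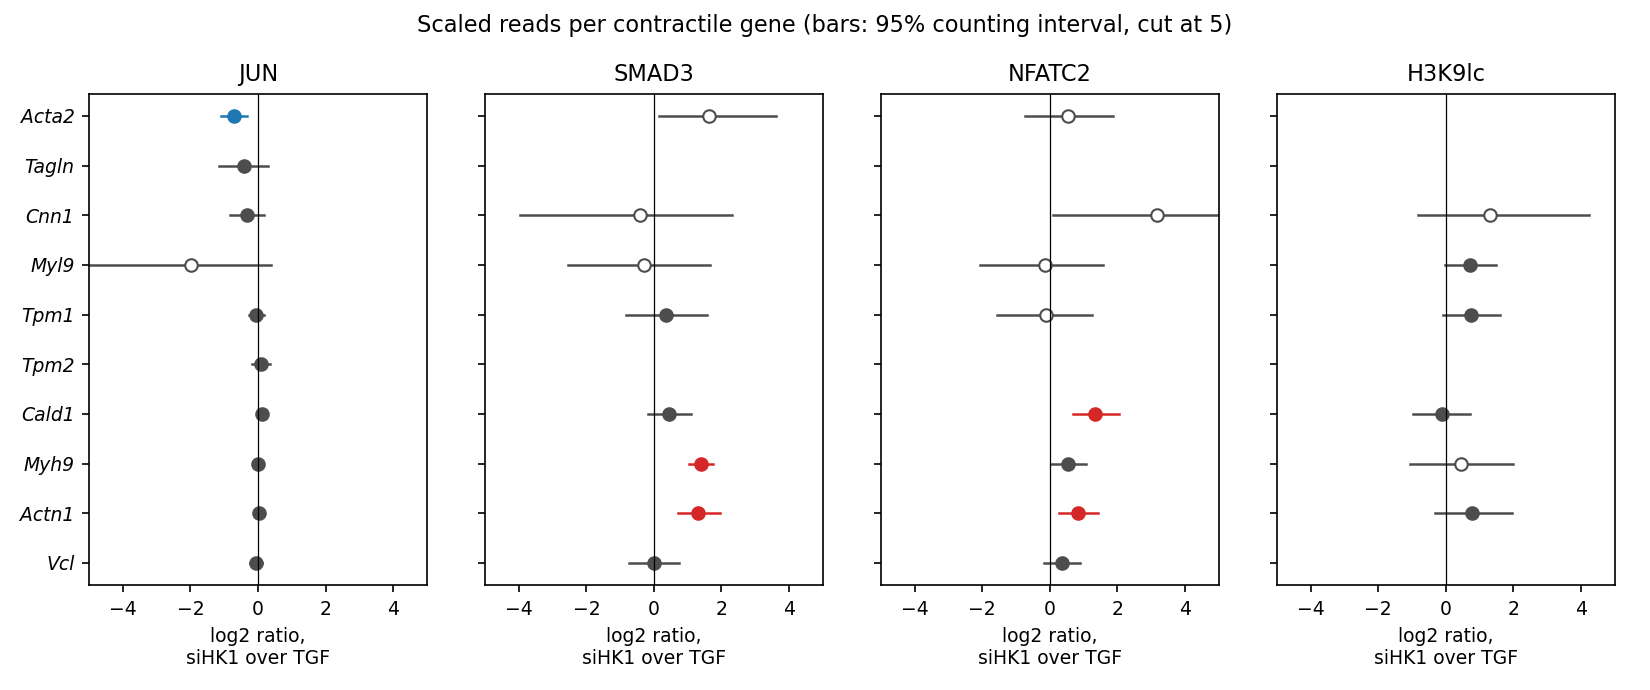
Log2 ratio of scaled reads, siHK1 over TGF (horizontal axis), for each contractile gene in 4 antibodies. Lines are 95% counting intervals of the ratio, filled points were tested, open points had too few reads, blue was called lower and red higher. Acta2 is blue for JUN (-0.71), and Myh9 and Actn1 are red for SMAD3 (1.38 and 1.31).

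At the start sites themselves, that is in regions that cover a start site, JUN reads fell at Acta2 and Tagln. The Acta2 region (chr19:34254681-34256006) had 208 reads in TGF and 61 in siHK1, a log2 ratio of -0.87 with a ratio interval of 0.402 to 0.727. The Tagln region (chr9:45935596-45936146) held 41 and 11 reads, a log2 ratio of -0.97, its interval of 0.231 to 0.986 ending just under 1, and its peak was marked in TGF only. The other Tagln region (chr9:45936884-45937124, at -826 bases) had 18 and 13 reads, a log2 ratio of 0.40 with an interval of 0.604 to 2.89, and its peak was marked in siHK1 only. The start-site regions of Acta2 and Tagln were the calls among 10 tested start-site regions of the members, and 0 were higher. A Cald1 region that ends 5 bases short of the downstream start site of that gene is not among the 10. Among all 6703 tested start-site regions, 4.04% were lower and 5.13% higher.

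Further start sites lay below 0 without passing the rule. The Cnn1 region (chr9:22099004-22099241) had 29 reads in TGF and 8 in siHK1, a log2 ratio of -0.92 with an interval of 0.202 to 1.15. Myl9 held all of its 10 reads and 1 read at its start site (chr2:156775222-156775634), the lowest level per kb among the members at the 2.95th percentile of start-site regions. Tpm1 at its upstream start site (chr9:67049198-67050153) had 105 and 39 reads, a log2 ratio of -0.53 with an interval that starts at 0.465 and includes 1. The other Tpm1 start-site region (chr9:67043867-67044163) lay near 0, with 29 and 15 reads, a log2 ratio of -0.06 and an interval of 0.478 to 1.85. Tpm2 (chr4:43522121-43523575) had 277 and 127 reads, a log2 ratio of -0.23.

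By contrast, the start sites of Myh9 (192 and 120 reads), Actn1 (73 and 45) and Vcl (98 and 61) had log2 ratios of 0.21, 0.19 and 0.21. None of the 3 was called. Of the 10 tested start-site regions of the members, 7 lay below 0, against 45.9% of tested start-site regions of all genes. In TGF the Acta2 and Vcl start-site regions had 157 and 221 reads per kb, against a median of 66.8 over all start-site regions. Without scaling 10 of the 11 were called lower, with at least 2-fold 0, and with a mean of at least 50 reads 1.

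Cald1 has several start sites. The upstream region (chr6:34598089-34598816) had 118 reads in TGF and 50 in siHK1, a log2 ratio of -0.34 with an interval of 0.553 to 1.10. The downstream region (chr6:34708244-34709437), which spans the AP-1 match printed above, had 99 and 93 reads and was called higher, with a log2 ratio of 0.80 and an interval of 1.30 to 2.34. These 2 regions were set side by side after their values were seen, and the downstream one does not cover its start site. The regions at 324, 1306 and 2832 bases past a further Cald1 start site had 49 and 20, 237 and 151, and 180 and 88 reads, with log2 ratios of -0.39, 0.24 and -0.14. The intervals of the upstream and downstream regions do not overlap, but the downstream log2 ratio is -0.09 without scaling, when the upstream region lies further below 0.

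**Figure D3:**
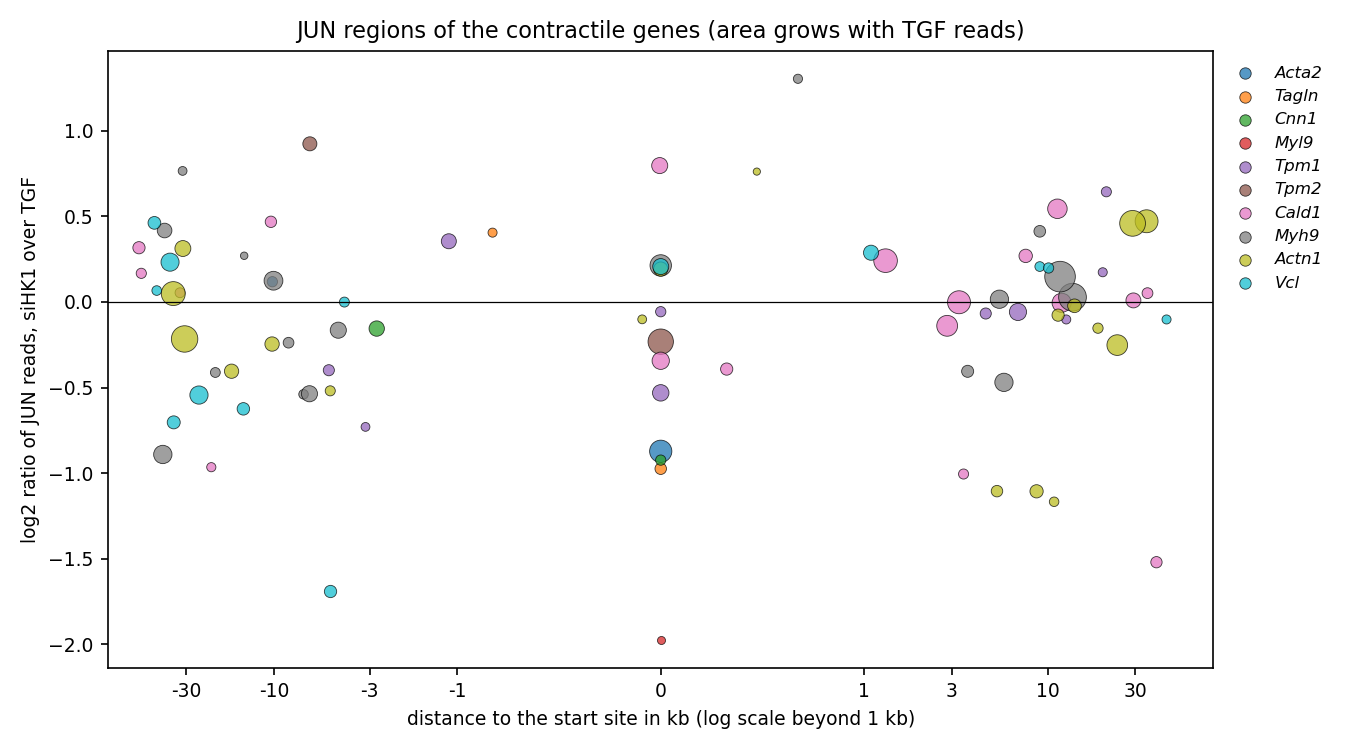
Log2 ratio of JUN reads, siHK1 over TGF (vertical axis), for the 86 JUN regions of the contractile genes by distance to the start site in kb (horizontal axis, logarithmic beyond 1 kb), with point area growing with TGF reads. At the start site the Acta2, Tagln, Cnn1 and Myl9 regions lie at -0.87, -0.97, -0.92 and -1.97, below those of Vcl and Myh9 at 0.21.

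Away from the start sites, 66 JUN regions of the members were tested, of which 5 were called lower and 3 higher. With the start sites included, of 76 tested JUN regions of the members, 7 (9.21%) were lower and 3 (3.95%) higher, against 8.24% and 6.46% of 50764 tested regions, shares near the background. A peak was marked in both libraries at 50 of the 86 regions (58.1%), in TGF only at 32 (37.2%) and in siHK1 only at 4 (4.65%). Over all JUN regions these shares were 49.7%, 38.1% and 12.1%. Outside Acta2 and Tagln, the region of a gene with the most scaled reads over both libraries was not called at any member. The most-read Myh9 region, intronic at chr15:77800302-77801533, had 412 reads in TGF and 246 in siHK1 (log2 ratio 0.15). The most-read Actn1 region, intronic at chr12:80228788-80229677, had 286 and 212 reads (log2 ratio 0.46, interval 1.15 to 1.65), under the 1.5-fold limit.

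None of the most-read regions of the next 4 genes was called. In Cald1 it had 237 reads in TGF and 151 in siHK1 (log2 ratio 0.24). In Vcl, upstream of the gene, it had 131 and 83 reads (log2 ratio 0.23), and in Tpm1, intronic, 116 and 60 reads (log2 ratio -0.06). In Cnn1 it lay upstream, at -2747 bases from the start site, and had 89 and 43 reads (log2 ratio -0.16, interval 0.608 to 1.30), an interval that overlaps that of its start site.

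Of the 7 lower calls, 5 had a peak marked in TGF only and 2 in both libraries, and of the 3 higher calls 1 was marked in siHK1 only. A region marked in 1 library was listed through that library, so these calls are a description only. Beside Actn1, 2 regions past the gene's end (chr12:80161047-80161441 and chr12:80164518-80164855) had 61 and 41 reads in TGF and 15 and 10 in siHK1, and both were called lower (log2 ratio -1.11 and -1.10). An intergenic region upstream of Vcl (chr14:20924208-20924489) fell from 50 reads to 8 (log2 ratio -1.69, interval 0.122 to 0.631). An intronic Cald1 region had 39 and 7 reads (log2 ratio -1.52), and a region upstream of Myh9, at -40382 bases, had 135 and 39 (log2 ratio -0.89), both called lower. A region upstream of Tpm2 (chr4:43530129-43530796) was called higher, with 71 and 73 reads (log2 ratio 0.92, interval 1.36 to 2.68). The other higher calls were the Cald1 region that ends just short of the downstream start site, and a Myh9 region with 19 and 26 reads (log2 ratio 1.30). None of these directions turned under the other scalings except that of Cald1.

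The central 200 bases of 3 of these JUN regions are given on the plus strand, with the same motifs in capitals, since they set a region near 0 beside 1 called higher and 1 called lower. The upstream, intergenic Acta2 region (chr19:34265784-34266031) had 29 reads in TGF and 17 in siHK1, a log2 ratio of 0.12 with an interval of 0.561 to 2.05, which overlaps that of the start site.
Acta2 upstream JUN region, chr19:34265808-34266007: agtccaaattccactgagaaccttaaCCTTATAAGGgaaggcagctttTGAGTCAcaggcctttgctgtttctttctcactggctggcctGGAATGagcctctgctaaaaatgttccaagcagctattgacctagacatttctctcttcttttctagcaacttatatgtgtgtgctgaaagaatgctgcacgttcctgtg
Tpm2 upstream JUN region, called higher, chr4:43530363-43530562: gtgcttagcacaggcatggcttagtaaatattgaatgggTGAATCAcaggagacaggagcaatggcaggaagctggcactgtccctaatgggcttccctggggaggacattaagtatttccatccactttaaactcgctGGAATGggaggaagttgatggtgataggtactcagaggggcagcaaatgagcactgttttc
Vcl upstream JUN region, called lower, chr14:20924249-20924448: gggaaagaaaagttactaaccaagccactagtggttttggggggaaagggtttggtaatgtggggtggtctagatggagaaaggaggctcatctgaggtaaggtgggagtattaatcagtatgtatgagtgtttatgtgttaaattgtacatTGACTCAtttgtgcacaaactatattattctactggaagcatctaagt

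All 3 hold an AP-1 motif, and whether motifs differ between regions called higher and lower was not tested. The Acta2 region also holds a CArG box and a TEAD motif. In the central 200 bases, 27 of 86 JUN regions of the members held an AP-1 motif (31.4%, exact 95% interval 21.8 to 42.3%) against 29.2% of all JUN regions. A CArG box was found in 4 of 86 (4.65%, interval 1.28 to 11.5%) against 0.923% of all JUN regions, 2 of the 4 beside Vcl upstream of its start site, 1 at the Vcl start site and 1 beside Acta2.

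SMAD3 reads were higher in siHK1 at Myh9 and Actn1, and JUN reads at the same genes stayed at the level of their table. Myh9 had 103 SMAD3 reads in TGF and 191 in siHK1 over 17 regions, a log2 ratio of 1.38 (ratio interval 2.05 to 3.35). Actn1 had 36 and 64 reads over 9 regions, a log2 ratio of 1.31 (ratio interval 1.64 to 3.88). Both kept their direction without scaling, at 0.89 and 0.82, but Actn1 is not called within 3 kb of a start site or with a mean of at least 50 reads. Of 5 members tested, these 2 were called higher and 0 lower, against 20.6% higher and 12.4% lower among all 7013 genes tested, so a higher call was common in this table.

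The other members did not pass the rule for SMAD3. Cald1 had 43 reads in TGF and 42 in siHK1 (log2 ratio 0.45, ratio interval 0.878 to 2.16). Vcl had 39 and 28 reads (log2 ratio 0.02) and Tpm1 14 and 13 (log2 ratio 0.37), and all 3 lie below 0 without scaling. Acta2, Cnn1 and Myl9 had too few reads to be tested, with 5 and 12 reads, 4 and 2 reads, and 7 and 4 reads. Tagln and Tpm2 had no SMAD3 region. The region with the most SMAD3 reads had 15 and 15 reads in Vcl (intergenic, log2 ratio 0.48) and 9 and 16 in Cald1 (intronic, log2 ratio 1.26). The Acta2 reads lay in 1 region at the start site (chr19:34255361-34255650), within the JUN region that fell, with a peak marked in siHK1 only, through which the region was listed, and their ratio interval was 1.11 to 12.3.

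SMAD3 regions with higher reads were spread over Myh9. Just upstream of its start site (chr15:77842268-77842636) there were 7 reads in TGF and 27 in siHK1 (log2 ratio 2.33, interval 2.31 to 14.8). An intronic region (chr15:77800599-77801059) had 8 and 26 reads (log2 ratio 2.10), and another with the most reads (chr15:77798930-77799482) had 11 and 25 (log2 ratio 1.62). In all, 14 of the 17 regions lay above 0. A peak was marked in siHK1 only at 13 (76.5%) and in TGF only at 4 (23.5%), against 47.7% and 47.2% of all SMAD3 regions. A region marked in siHK1 only was listed through that library. Such listing favours more reads there without fixing the direction, so the count above 0 is a description only.

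At Actn1, the intronic region with the most SMAD3 reads (chr12:80220540-80221099) had 8 reads in TGF and 18 in siHK1 (log2 ratio 1.58, interval 1.31 to 8.43). A further intronic region (chr12:80229323-80229544) had 3 and 15, below the level for a test. Without regions over 3 kb from a start site, Actn1 keeps 1 region, with 1 and 5 reads. The centres of a Myh9 and an Actn1 region are shown on the plus strand, with AP-1 (TGANTCA) and SMAD (CAGAC) motifs in capitals, as sites where JUN, SMAD3 and NFATC2 regions all overlap.
Myh9 intronic SMAD3 region, chr15:77800730-77800929: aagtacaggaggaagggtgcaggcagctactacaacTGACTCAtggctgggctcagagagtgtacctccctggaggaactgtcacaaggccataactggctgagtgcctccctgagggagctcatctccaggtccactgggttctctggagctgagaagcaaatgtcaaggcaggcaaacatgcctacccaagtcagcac
Actn1 intronic SMAD3 region, chr12:80229334-80229533: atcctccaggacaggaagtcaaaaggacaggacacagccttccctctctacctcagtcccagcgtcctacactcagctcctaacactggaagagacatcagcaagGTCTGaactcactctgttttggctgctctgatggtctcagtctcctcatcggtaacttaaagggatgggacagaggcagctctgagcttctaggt

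SMAD3 and JUN regions often coincided at these genes. Of 46 SMAD3 regions of the members, 24 overlapped a JUN region by at least 1 base (52.2%, interval 37.0 to 67.1%), against 23.0% of all SMAD3 regions. Of 86 JUN regions of the members, 24 overlapped a SMAD3 region (27.9%, interval 18.8 to 38.6%), against 18.1% of all. A SMAD motif lay in the central 200 bases of 26 of 46 SMAD3 regions (56.5%, interval 41.1 to 71.1%), against 38.2% of all SMAD3 regions. The NFATC2 regions of the members gave a like share, 32 of 58 (55.2%, interval 41.5 to 68.3%), against 38.2% of all NFATC2 regions. Regions are not replicates, and many of these belong to 1 gene.

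SMAD3 regions shared with JUN and the others differed both in ratio and in which library listed them, and the part of the listing in the ratios was not tested. Of the 24 shared regions, 16 had a peak marked in siHK1 only and 10 belonged to Myh9. A siHK1 peak was marked at 70.8% of the shared and 45.5% of the other regions of the members, and at 76.9% and 45.4% over the whole table. The 24 shared regions had 141 SMAD3 reads in TGF and 262 in siHK1, a log2 ratio of 1.38 with an interval of 1.09 to 1.70 on the log2 scale. The other 22 had 110 and 94 reads, a log2 ratio of 0.27 with an interval of -0.14 to 0.68. Over the whole SMAD3 table these ratios were 0.15 for shared and -0.30 for unshared regions. As most of the 24 were listed through siHK1 only, their ratio and interval are a description only. Above 0 lay 22 of the 24 shared regions and 10 of the 22 others. The whole table was split in the same direction, with 74.1% of 13458 shared and 42.7% of 45175 unshared SMAD3 regions above 0. Among 4208 tested SMAD3 regions, 20.0% were higher and 10.1% lower, and start-site regions were higher in 45.9%. Of the members, 8 regions were tested and 6 were higher, 4 in Myh9, 1 in Actn1 and 1 in Cald1. They had 7 to 11 reads in TGF and reached the level for a test through their siHK1 reads, so this count is a description only.

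**Figure D4:**
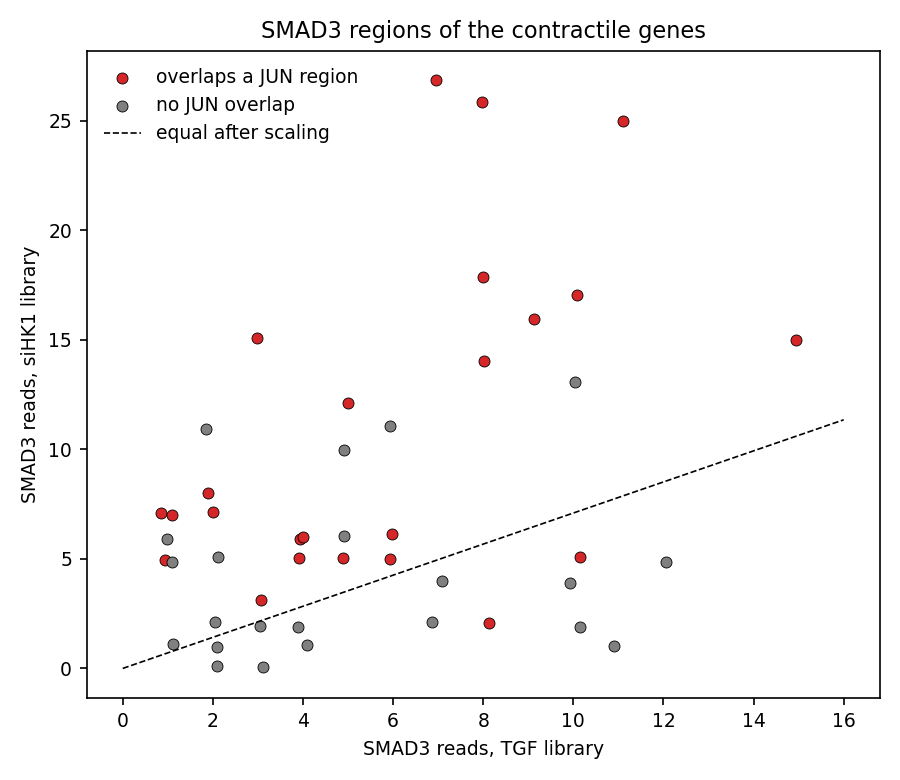
SMAD3 reads in TGF (horizontal axis) and siHK1 (vertical axis) for the 46 SMAD3 regions of the contractile genes, with points shifted by under 0.2 reads to separate them. Regions that overlap a JUN region (red, 24) lie above the dashed line of equal scaled reads in 22 cases, and the others (grey, 22) in 10.

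NFATC2 reads were higher in siHK1 at Cald1 and Actn1. Cald1 had 31 NFATC2 reads in TGF and 49 in siHK1 over 12 regions, a log2 ratio of 1.34 (ratio interval 1.60 to 4.16). Actn1 had 50 and 55 reads over 15 regions, a log2 ratio of 0.83 (ratio interval 1.19 to 2.67), which is 0.14 without scaling, where Cald1 is at 0.65. Neither gene is called without scaling, within 3 kb of a start site or with a mean of at least 50 reads. Of 4 members tested, these 2 were called higher and 0 lower, against 10.4% higher and 6.12% lower among all 5929 genes tested. A peak was marked in siHK1 only at 10 of the 12 Cald1 and 10 of the 15 Actn1 regions, against 54.0% over the table.

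The other tested genes were Myh9, with 72 and 65 NFATC2 reads (log2 ratio 0.55, ratio interval 1.03 to 2.08), and Vcl, with 69 and 55 (log2 ratio 0.37, ratio interval 0.891 to 1.87). Neither passed the rule, and both lie below 0 without scaling, at -0.15 and -0.32. The start-site region of Myh9 had 14 and 19 NFATC2 reads and was called higher by itself (log2 ratio 1.10, interval 1.05 to 4.75). Its 14 TGF reads scale to 8.62, so it too reached the level for a test through siHK1. Its JUN, SMAD3, NFATC2 and H3K9lc regions all overlapped there. The NFATC2 region with the most scaled reads had 18 reads in TGF and 12 in siHK1 in Actn1 (intronic, log2 ratio 0.11), 14 and 10 in Vcl (intergenic) and 11 and 5 in Cald1 (intronic). In Cald1 the region with the largest siHK1 count (chr6:34748416-34748681) had 1 read in TGF and 10 in siHK1.

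Sparse NFATC2 reads left the remaining genes untested. Acta2 had 12 reads in TGF and 11 in siHK1, of which its start-site region had 6 and 1. Tpm1 had 14 and 8 reads, Myl9 9 and 5, and Cnn1 0 and 4, a count of 0 that allows up to 3 reads. Tagln and Tpm2 had no NFATC2 region. The 38 NFATC2 regions of the members away from JUN had a log2 ratio of 0.83 (log2 interval 0.45 to 1.22) and the 20 shared with JUN one of 0.53 (0.18 to 0.88), so the intervals overlap. Over the whole NFATC2 table these ratios were 0.13 and -0.07. A siHK1 peak was marked at 71.1% of the 38 and 50% of the 20, so most of the 38 were listed through siHK1.

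H3K9lc was sparse at the contractile genes, and no member was called. Acta2, Tagln, Tpm2 and Vcl had no H3K9lc region under siHK1 against TGF. Of 11 regions, 8 were intergenic, 2 within 3 kb of a start site and 1 intronic, and 0 covered a start site. Myl9 had 33 H3K9lc reads in TGF and 31 in siHK1 (log2 ratio 0.71, ratio interval 0.977 to 2.78), Tpm1 26 and 25 (0.74, 0.935 to 3.04) and Actn1 15 and 15 (0.78, 0.800 to 3.85). The region with the most reads was intergenic in all 3, with 14 and 15 reads in Myl9, 19 and 13 in Tpm1 and 10 and 8 in Actn1. Their log2 ratios over the gene lay between the percentiles 96.8 and 97.4 of tested genes, though every interval includes 1 and none is above 0 without scaling. A peak was marked in siHK1 only at 8 of the 11 member regions (72.7%), against 24.2% over the table, so most were listed through siHK1 and the ranks are a description only.

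Cald1 was the exception among the tested genes, with 38 reads in TGF and 20 in siHK1 in 1 intronic region (log2 ratio -0.11, ratio interval 0.509 to 1.63). Myh9 had 10 and 8 reads just upstream of its start site and Cnn1 3 and 5, both too few to test. Of 4 members tested, 0 were lower and 0 higher, against 3.20% lower and 2.42% higher among all 9869 genes tested. Per kb the members held 14.4 to 47.9 H3K9lc reads in TGF, and all listed regions together 72.0. Of the 86 JUN regions of the members, 2 overlapped an H3K9lc region (2.33%, interval 0.283 to 8.15%), against 6.07% of all JUN regions. Counted from the H3K9lc side, 2 of the 11 member regions overlapped a JUN region (18.2%, interval 2.28 to 51.8%), against 5.92% of all H3K9lc regions, and 2 of 11 an NFATC2 region, against 6.58%. With 2 overlapping regions no direction can be read.

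The comparison of TGF with NC addresses whether TGF-β alters H3K9lc, and it could not be resolved at these genes. The NC library had 115572 reads over the listed regions and the TGF library 2313288, and the TGF library is the same as in the comparison with siHK1. Members had 7 regions with 6 reads in NC and 62 in TGF, and 0 of the 4 listed genes reached the level for a test. Among the 1979 genes tested, 2.17% were lower and 13.9% higher. Cald1 had 5 NC and 49 TGF reads over 4 regions, Myl9 0 and 9, Actn1 0 and 4, and Cnn1 1 and 0.

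The intronic Cald1 region is the only H3K9lc region of the members with over 30 reads in a library. It had 0 reads in NC, 38 in TGF and 20 in siHK1. The neighbouring intronic region (chr6:34705969-34706393), marked in NC only, had 3 reads in NC and 9 in TGF, a scaled log2 ratio of -1.88 in the other direction. Scaled to the NC total over listed regions, the 38 TGF reads come to 1.90, while a count of 0 in NC allows up to 3. Whether the unscaled gap of 0 and 38 reads exceeds the difference in depth was not tested, since that depth is unknown. Its centre is shown on the plus strand with SMAD motifs in capitals, as the member site with the most H3K9lc reads.
Cald1 intronic H3K9lc region, chr6:34704619-34704818: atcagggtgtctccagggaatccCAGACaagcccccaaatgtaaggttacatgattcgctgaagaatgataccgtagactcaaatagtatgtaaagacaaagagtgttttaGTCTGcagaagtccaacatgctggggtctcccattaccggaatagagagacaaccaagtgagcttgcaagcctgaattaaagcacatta

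Further genes of the actin cytoskeleton and of the SRF pathway were read as a list of 38 names. For JUN, 33 were tested, with 2 lower, Lmod1 (36 and 9 reads, log2 ratio -1.07) and Actg1 (100 and 32, -0.74), and 1 higher, Myocd (87 and 80, 0.76), against 5.12% lower and 3.68% higher among all genes tested. Lmod1 encodes a smooth muscle actin nucleator, Actg1 a cytoplasmic actin and Myocd the SRF coactivator myocardin. Their median was -0.05. Myocd lies below 0 without scaling.

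For SMAD3, 22 of the list were tested, with 6 higher and 1 lower, against 20.6% and 12.4% among all genes tested. The largest changes were in Rock2, a kinase that promotes actomyosin contraction (12 and 28 reads, log2 ratio 1.66), Csrp1, an actin-bound LIM protein, which was lower (27 and 6, -1.60), Myh10, a non-muscle myosin heavy chain (18 and 32, 1.29) and Ppp1r12a, a myosin phosphatase subunit (12 and 21, 1.25). The median of the 22 was 0.48, and that of all tested genes 0.17. For NFATC2, 20 were tested, with 4 higher (Cnn3, Rock2, Ppp1r12b and Myh10) and 0 lower, against 10.4% and 6.12% among all genes tested. Rock2 and Ppp1r12a for SMAD3, and Cnn3 and Rock2 for NFATC2, had under 10 scaled reads in TGF and reached the level for a test through their siHK1 reads. Csrp1 for SMAD3, with 6 reads in siHK1, and Lmod1 for JUN, with 9, reached it through TGF. For H3K9lc, 12 were tested and none was called under siHK1.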

How the data were processed

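CUT&Tag libraries of primary mouse cardiac fibroblasts were used, 10 in all, of which 9 entered comparisons. The authors deposited, per table, raw read counts per region and a 0 or 1 peak mark for each library. Per the submitters' processing notes reads were aligned with BWA 0.7.12 to mm10, whereas the study's methods name Bowtie2, MACS2 and GRCm39. All 208 member rows carried transcript coordinates found in GENCODE vM21 on GRCm38, and all 340994 regions fit on the GRCm38 chromosomes, so coordinates are given on GRCm38, counted from 1. Normalized means, log2 ratios, p-values, adjusted p-values and calls made by the authors were not used, nor were 3 value columns that match no sample.

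Reads were summed per gene symbol and scaled to equal totals over the table, with the deeper library scaled down. Log2 ratios used a pseudocount of 0.5, so they understate changes of low counts. Intervals are exact conditional binomial intervals of the ratio of 2 counts, and shares carry exact (Clopper-Pearson) intervals. Depth of the whole libraries is unknown, since the tables hold only listed regions. The rule named all members and, per table, the region nearest a start site and the most-read region, and from the further actin list up to 4 called genes by size of change. In the sparse tables some of these regions are given only within the total of their gene. Regions called by the rule, those shared by several antibodies and those printed as sequence were named after their values were seen. The members and lists were chosen with earlier results of these data known. The scripts (Python 3.11.15, pandas 2.3.3, NumPy 2.4.6, SciPy 1.17.1, Matplotlib 3.10.9) were tested on simulated data with known changes.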

Additional observations from a re-analysis of the deposited data

Results flagged for a closer look

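The log2 ratios of Acta2 had opposite signs with 2 antibodies. Its JUN log2 ratio of siHK1 over TGF was -0.71 and its SMAD3 log2 ratio was 1.63. The SMAD3 value rests on 5 and 12 reads in 1 region, below the level for a test and listed through its siHK1 peak alone, so its interval is no support for a difference, and the difference between the antibodies was not tested. The directions held under every scaling tried, with SMAD3 between 1.18 and 1.63 and JUN between -1.60 and -0.69.

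Reads at these genes were also present in the library titled TGF, whose labels name no antibody and which entered no comparison. It had 131 reads in 63 called regions of the 10 genes, with a median of 2 and at most 6 reads in a region, in Myh9. Over all 198 listed regions of these genes it had 169 reads, of which 11 lay at start-site regions.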

How the results depend on the processing

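Without scaling, the members' median log2 ratio went from -0.05 to -0.94 for JUN. It changed sign for H3K9lc (0.72 to -0.0722), SMAD3 (0.41 to -0.0683), NFATC2 (0.54 to -0.13) and TGF over NC (-0.21 to 3.17). Members called lower became 9 for JUN and 1 for H3K9lc, and members called higher became 0 for NFATC2 and 1 for TGF over NC. The ratio of totals itself sets this shift, which is -0.89 for JUN, -0.81 for H3K9lc, -0.49 for SMAD3, -0.70 for NFATC2 and 4.32 for TGF over NC. Of all genes called, the share that was higher became 0.0657% in H3K9lc, 0.0330% in JUN, 17.4% in SMAD3 against 62.5% as reported, 3.54% in NFATC2 against 62.8%, and 100% in TGF over NC. Another scaling centred regions with a peak in both libraries on 0. The median was then -0.14 for JUN and 0.29 for TGF over NC. The latter changed sign here too, with a shift of 0.83. The share of gene calls that were higher was 24.3% in H3K9lc against 43.1% as reported, 26.2% against 41.9% in JUN, and 99.6% against 86.5% in TGF over NC. Totals without regions of over 1000 reads, chosen after seeing the data, gave 59.9% for H3K9lc and 26.6% for TGF over NC, and 1 member called higher for H3K9lc.

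Within 3 kb of a start site the SMAD3 median was 1.69, the JUN median -0.15 and the TGF over NC median -1.58. There, 1 member was called higher for SMAD3 and 0 for NFATC2. Without distal intergenic regions, and likewise by coordinates of the gene (chosen after seeing the data), it was -0.17 for JUN and 0.70 for SMAD3. Requiring a mean of at least 50 left 1 member higher for SMAD3 and 0 for NFATC2, and requiring at least 2-fold left 0 lower for JUN and 1 higher for NFATC2. Without the interval 3 were higher for H3K9lc. The cause was not tested where none is given. Of 301 values of single members under the alternatives, 270 stayed within the counting interval of the reported value, and 0 of the called ones changed sign. Some members that were not called did change sign between scalings, such as Cald1 for SMAD3, from 0.45 to -0.03 without scaling. No paired analysis was possible because there is a single library for every antibody in a condition. Counts of a few reads per region limit SMAD3, NFATC2 and H3K9lc.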
